A study of Sus scrofa with 18 samples.

Results

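The genes described here build the link between the contractile machinery of a smooth muscle cell and its surroundings, and they were taken as a list of 10 genes out of the 28210 RefSeq genes placed on the named chromosomes of the Sscrofa11.1 assembly of the pig genome. DMD, SGCA, SGCB, SGCD and DAG1 encode members of the dystrophin complex, CAV1 and CAVIN1 encode caveola proteins, and VCL, FLNA and SYNPO2 encode proteins of the actin anchorage. H3K4me3 and H3K27ac were profiled by CUT&Tag, in which a protein A-Tn5 fusion cuts the DNA beside a bound antibody. The 3 types of myometrium came from the mesometrial side of the uterus of Yorkshire gilts on day 15. GD15M_CM was the inner circular muscle layer of pregnant gilts, GD15M_LM the outer longitudinal layer of pregnant gilts, and CD15M_CM the circular layer of gilts on the same day of the estrous cycle. The age of the gilts was not given in the sources used here. Each type had 2 gilts per mark and an IgG control for each, 18 libraries in all.

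The reads of both gilts were pooled before peaks were called, so each type and mark has 1 list of peaks and no value per gilt. No difference between lists could therefore be tested, there is no error between replicates, and every comparison is a description of pooled lists. The paper's own differential analysis of regions between these tissues, made with DiffBind, was not used here. The lists hold no read numbers, and the depth of the libraries was not used here. H3K4me3 lists held 31910 to 36331 peaks and H3K27ac lists 57010 to 82037. A gene was given every peak from 3 kb before to 3 kb after its RefSeq interval. The strongest of these is the one with the highest fold enrichment, which is the ratio of the mark to IgG. To place it, all peaks of the same list were ordered by fold enrichment, and the percentile runs from 0 for no peak to 100 for the top of the list. A difference of at least 10 percentile points was counted as a call. Where a count was repeated under another setting, no share of all genes is given for that setting.

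In muscle, dystrophin binds actin filaments inside the cell and, through dystroglycan and the sarcoglycans in the membrane, reaches laminin in the matrix outside. In smooth muscle this complex lies in bands along the membrane that also carry caveolae, small flask-shaped pits formed by caveolins and cavins. These bands alternate with dense plaques, where vinculin, filamin and other proteins tie actin to integrins. H3K4me3 is typical of active promoters, and H3K27ac is found at active promoters and enhancers.

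The smooth muscle identity of the tissues was checked on 10 marker genes, and all 10 had a peak in every list. Their median percentile for H3K4me3 was 77.0 in GD15M_CM, 90.1 in GD15M_LM and 87.3 in CD15M_CM. Of 6 skeletal and heart muscle markers, 1 or 2 had a peak, and MYOD1, MYOG and TNNT2 had none in any list. For H3K4me3, all 6 epithelial markers ranked lowest in the longitudinal layer, and for H3K27ac 4 of 6 did. They all had both marks in both circular tissues, whereas in GD15M_LM 5 had H3K4me3 and 4 had H3K27ac, with no H3K4me3 peak at KRT7 and no H3K27ac peak at KRT18 or GRHL2, although H3K27ac at KRT7 was highest there. The median epithelial percentile for H3K4me3 was 77.6 in GD15M_CM, 57.7 in GD15M_LM and 76.6 in CD15M_CM, and that for H3K27ac was 75.6, 13.6 and 70.9. The 4 placed T cell markers had a median H3K4me3 percentile of 67.4, 59.6 and 52.1 in the same order. Macrophage and B cell markers had 65.3, 71.0 and 77.9 for H3K4me3 and 62.4, 84.6 and 81.4 for H3K27ac, and endothelial markers had 60.2, 62.8 and 67.3 for H3K4me3. Of the 3 placed mesothelial markers, WT1 had H3K4me3 percentiles of 91.5, 99.2 and 96.8 and UPK3B had 54.2, 61.0 and 59.9. UPK1B had no peak of either mark in any list. GD15M_CM was thus lowest for the smooth muscle, macrophage and B cell, and endothelial markers, and highest for the epithelial and T cell markers, by median H3K4me3 percentile. The part of these markers in the results was not tested.

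All 10 genes carried both marks in all 3 tissues. A peak of a given list was found at 60.0% to 64.9% of all genes and at 73.1% to 75.8% of protein-coding genes. A long gene can hold more peaks. DMD and SGCD span 2623 and 1034 kb, beside a median of 20.7 kb over protein-coding genes, whereas SGCA, SGCB and CAVIN1 are shorter than that median. The median H3K4me3 percentile of the 10 genes was 73.5 in GD15M_CM, 83.2 in GD15M_LM and 84.7 in CD15M_CM, beside 80.9, 79.4 and 81.8 over all genes with a peak. For H3K27ac it was 88.7, 88.6 and 90.6, beside 86.9, 83.2 and 85.2. The H3K4me3 fold enrichment was lowest in GD15M_CM at 9 of the 10 genes, VCL being the exception, but this was also so at 60% of all genes with peaks in all 3 lists. The percentile is a rank within its own list and so also depends on how many weaker peaks that list holds. By percentile, GD15M_CM was lowest at 6 of 10 genes, beside 36.7% of all genes. For H3K27ac, GD15M_CM was lowest at 5 of 10 genes by fold enrichment, beside 37.5%, and at 3 of 10 by percentile, beside 29.9%. Because whole tissue was used, fewer smooth muscle cells and less mark per cell cannot be told apart.

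**Figure D1:**
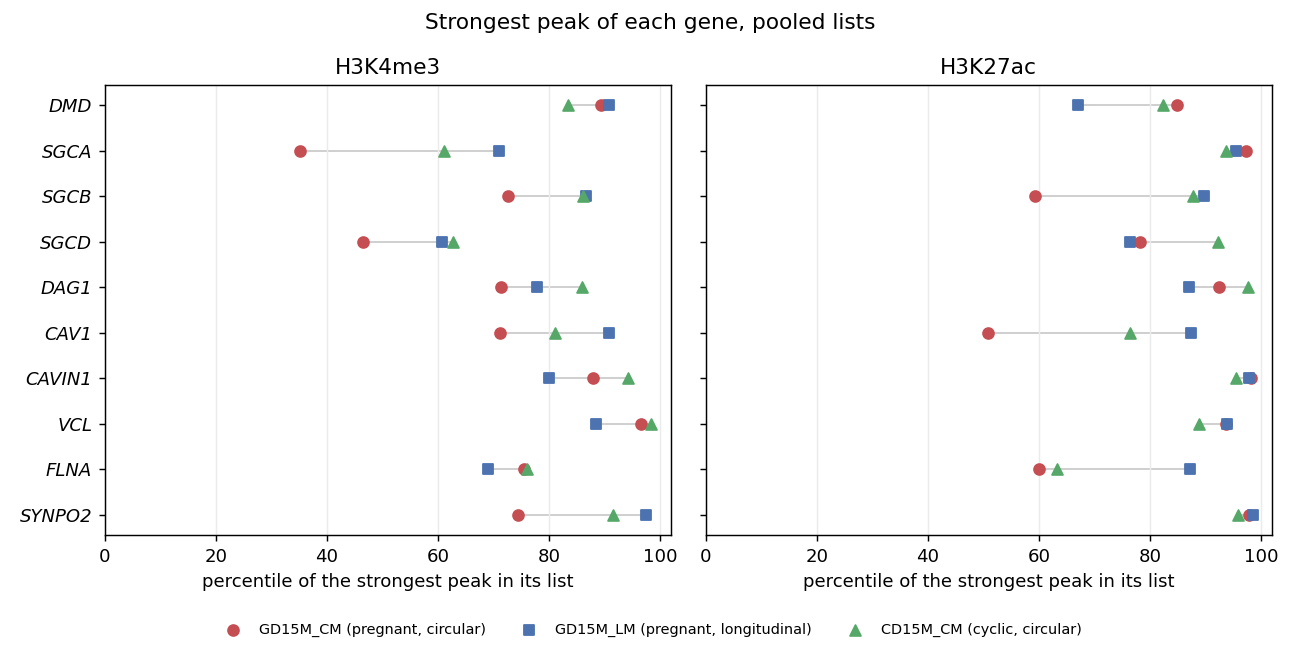
Percentile (0 to 100) of the strongest peak of each of the 10 genes within its own pooled list, for H3K4me3 (left) and H3K27ac (right); each point is 1 pooled list of 2 gilts, and the grey line spans the 3 tissues. For H3K4me3, GD15M_CM lies lowest at SGCA, SGCB, SGCD, DAG1, CAV1 and SYNPO2; for H3K27ac it lies lowest at SGCB, CAV1 and FLNA.

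DMD encodes dystrophin itself and is by far the longest of these genes, with an interval of 2623 kb on chromosome X (27028223 to 29650728). The annotation used here gave no strand, and positions are therefore given from the end with the lower coordinate, called the low end, and from the high end. DMD is known to have several promoters spread along the gene. None of the 6 lists had a peak within 3 kb of either end, whereas the strongest H3K4me3 peak lay near an end in 91.9% to 92.2% of all genes with a peak. The strongest H3K4me3 peak of DMD lay in the same place in all tissues, about 154 kb from the low end (27181155 to 27183707). Its fold enrichment was 20.0 in GD15M_CM, 26.2 in GD15M_LM and 20.3 in CD15M_CM, at percentiles of 89.4, 90.9 and 83.5. The tissues therefore differed by less than the call at this site. A second H3K4me3 site lay 2153 kb from the low end (29180922 to 29181904), with a fold enrichment of 4.80 in GD15M_CM, 18.0 in GD15M_LM and 9.03 in CD15M_CM. Its percentiles were 49.5, 76.6 and 64.6, so this site was highest in the longitudinal layer and lowest in the pregnant circular layer. Both sites had their highest value in GD15M_LM, but only at the second did the tissues differ by more than the call. Beside it lay 3 further H3K4me3 peaks, 2148 to 2152 kb from the low end, which were present in GD15M_LM alone, with fold enrichments of 4.17, 3.66 and 8.24. Which promoters of DMD these sites belong to was not analysed here.

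H3K27ac was sparse over DMD. GD15M_CM had 1 peak in the whole interval, and GD15M_LM and CD15M_CM had 2 each. The site at 154 kb carried H3K27ac in all tissues, with a fold enrichment of 4.88 in GD15M_CM, 4.34 in GD15M_LM and 4.74 in CD15M_CM. In GD15M_LM the strongest H3K27ac peak was a different one, 451 kb from the low end, with a fold enrichment of 4.43. CD15M_CM had its second peak at 401 kb with a fold enrichment of 3.05. The second H3K4me3 site, where the longitudinal layer stood out, had no H3K27ac peak in any list.

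SGCD encodes delta-sarcoglycan and is also long, with 1034 kb on chromosome 16 (66447982 to 67481709). At its high end (67480022 to 67482317) the H3K4me3 fold enrichment was 4.54 in GD15M_CM, 9.47 in GD15M_LM and 6.68 in CD15M_CM. A site inside the gene, 442 kb from the low end (66889654 to 66890414), had H3K4me3 in GD15M_LM with a fold enrichment of 3.24 and in CD15M_CM with 7.77, but no peak in GD15M_CM. This internal site was the strongest H3K4me3 peak of SGCD in CD15M_CM. The best percentile of the gene was thus 46.6 in GD15M_CM, lower than the 60.6 of GD15M_LM and the 62.7 of CD15M_CM. The strongest H3K27ac of SGCD lay at or within 2 kb of this internal site in every tissue, with a fold enrichment of 4.43 in GD15M_CM, 4.93 in GD15M_LM and 5.71 in CD15M_CM. By contrast, the high end had only weak H3K27ac, of 3.11 in GD15M_LM and 2.82 in CD15M_CM, and no peak in GD15M_CM. GD15M_CM had 1 H3K27ac peak over the gene, GD15M_LM had 4 and CD15M_CM had 7. An lncRNA, LOC110257243, is annotated within SGCD (66810961 to 66832941), and another, LOC110257242, overlaps its low end. The GD15M_LM peak from 66820726 to 66821152 lay over LOC110257243 and cannot be assigned to SGCD alone.

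**Figure D2:**
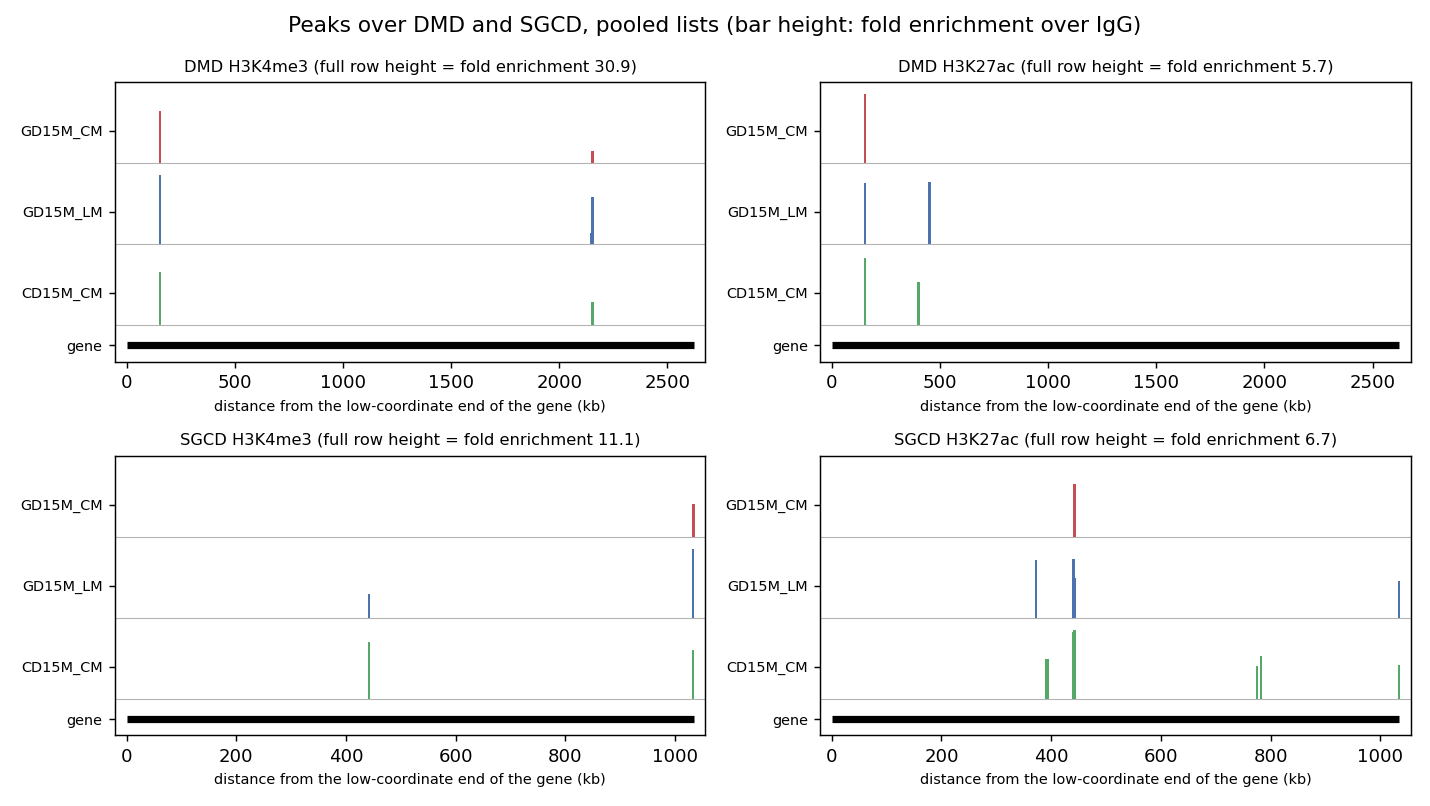
Peaks of each pooled list along DMD and SGCD, by distance from the low-coordinate end (kb), with bar height giving fold enrichment over IgG on a scale shared by the 3 tissues of a panel; bars narrower than 1/250 of the gene are drawn at that width. DMD had no peak at either end, and its second H3K4me3 site at 2153 kb was tallest in GD15M_LM, while at SGCD the site at 442 kb held the strongest H3K27ac of GD15M_CM and CD15M_CM.

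SGCA encodes alpha-sarcoglycan on chromosome 12 (26356691 to 26368561). Its H3K4me3 was the weakest of the 10 genes in GD15M_CM, with a fold enrichment of 3.89 at the low end, while that of GD15M_LM was 15.2 and that of CD15M_CM 6.94. The percentiles were 35.1, 71.0 and 61.0. This peak measured 698 bp in GD15M_CM and 961 bp in CD15M_CM but 2473 bp in GD15M_LM. Because 1 stretch can be called as several peaks, the bases under any peak of the region (26356323 to 26358970) were also counted, and these came to 2473 in GD15M_LM, 2101 in CD15M_CM and 923 in GD15M_CM. The longitudinal layer thus had the highest enrichment, while the length of the mark was close to that of the cyclic circular layer. The cyclic circular layer had many short peaks over the gene, 14 against 4 in GD15M_CM and 6 in GD15M_LM. H3K27ac went another way. Its strongest peak lay about 8 kb inside the gene in all tissues (26364276 to 26367013), with a fold enrichment of 7.02 in GD15M_CM, 7.38 in GD15M_LM and 5.91 in CD15M_CM, and all 3 percentiles were between 93.6 and 97.3. In the region over the low end itself (26356362 to 26358744), H3K27ac was 2.58 in GD15M_CM, 6.45 in GD15M_LM and 4.67 in CD15M_CM. Regions on either side went another way, with 4.57, 3.19 and 4.39 from 26359277 to 26362172 and 3.55, 3.28 and 4.21 from 26355147 to 26356003.

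SGCB encodes beta-sarcoglycan on chromosome 8 (39130371 to 39148756) and had the simplest layout, with 1 H3K4me3 peak per tissue at its high end (39147739 to 39150142). The fold enrichment there was 12.3 in GD15M_CM, 23.4 in GD15M_LM and 22.0 in CD15M_CM, at percentiles of 72.7, 86.6 and 86.1. H3K27ac at the same end was 3.72, 6.25 and 5.16, at percentiles of 59.3, 89.7 and 87.8. For both marks GD15M_CM was low and the other tissues lay close together.

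DAG1 encodes dystroglycan, the laminin receptor of the complex, on chromosome 13 (32028019 to 32092450). Its H3K4me3 at the low end had a fold enrichment of 11.8 in GD15M_CM, 18.6 in GD15M_LM and 21.9 in CD15M_CM, at percentiles of 71.4, 77.8 and 86.0. H3K27ac at the low end was 4.92 in GD15M_CM, 4.60 in GD15M_LM and 6.99 in CD15M_CM. A site 12 kb inside the gene, the strongest of both pregnant tissues, had 5.73, 5.91 and 3.86. How far H3K27ac spread along DAG1 differed more than these heights. GD15M_CM had 28 H3K27ac peaks over 23.2 kb, CD15M_CM 16 peaks covering 13.0 kb and GD15M_LM 6 peaks covering 4.53 kb. Joined over the tissues, these formed 28 regions, of which 4 were in all tissues, 10 in both circular tissues and 14 in GD15M_CM alone, and none in GD15M_LM alone. Over all genes, counted by peak and not by region, 27.1% of H3K27ac peaks in GD15M_CM and 9.19% in GD15M_LM were found in 1 tissue only. A transcribed pseudogene, LOC110256541, is annotated within DAG1 (32076153 to 32081512), and peaks over it cannot be told apart from those of DAG1. GD15M_LM had no H3K27ac peak between the site 12 kb from the low end and the high end. Across all genes with a peak in both lists, the covered length was at least 1.5 times longer in GD15M_CM than in GD15M_LM for 32.7%, and among the 10 genes for DAG1 and VCL. It was that much longer in GD15M_LM at SGCD and FLNA, which is 2 of 10 genes, beside 8.43% of all genes.

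**Figure D3:**
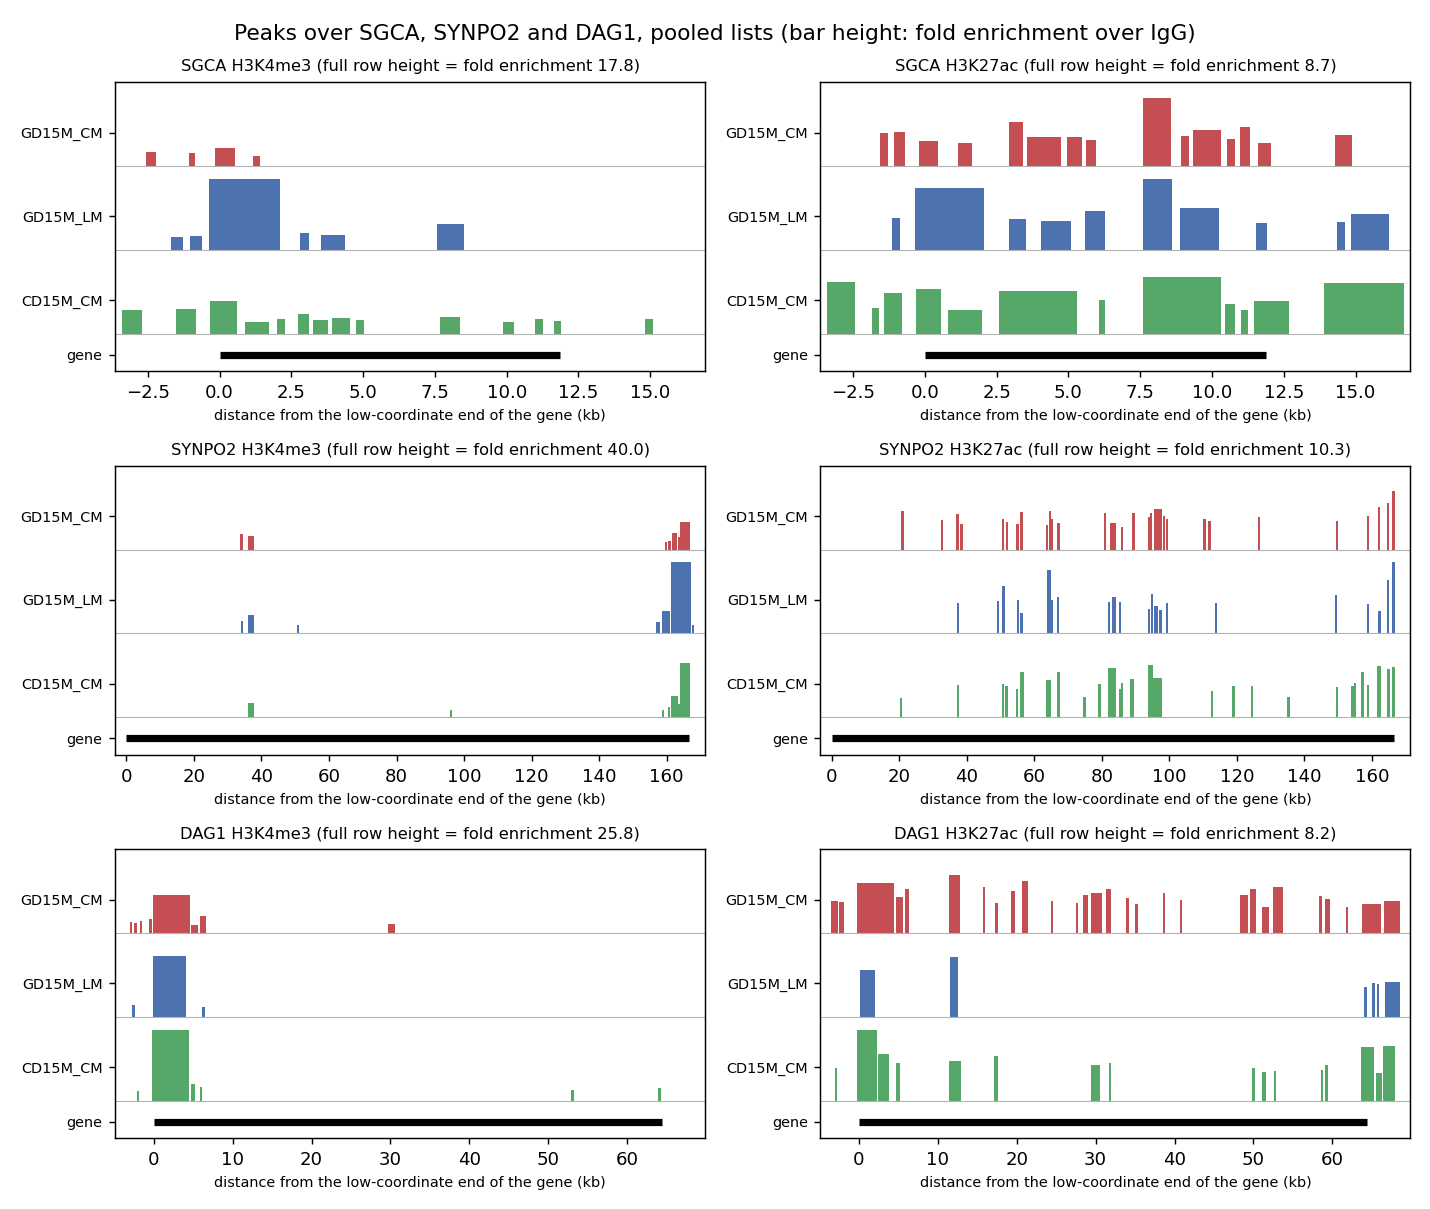
Peaks of each pooled list along SGCA, SYNPO2 and DAG1, by distance from the low-coordinate end (kb), with bar height giving fold enrichment over IgG on a scale shared by the 3 tissues of a panel; bars narrower than 1/250 of the gene are drawn at that width. H3K4me3 at the ends of SGCA and SYNPO2 was tallest in GD15M_LM, and H3K27ac covered 23.2 kb of DAG1 in GD15M_CM but 4.53 kb in GD15M_LM.

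CAV1 encodes caveolin-1, the main coat protein of caveolae, on chromosome 18 (29648120 to 29682451). Its H3K4me3 lay at the high end (29678516 to 29683107), with a fold enrichment of 11.7 in GD15M_CM, 26.1 in GD15M_LM and 19.1 in CD15M_CM, at percentiles of 71.2, 90.7 and 81.1. H3K27ac over the end itself (29679537 to 29683059) was 3.49 in GD15M_CM, 5.95 in GD15M_LM and 3.95 in CD15M_CM. In both circular tissues the strongest H3K27ac peak of CAV1 lay outside this region, at 3.52 in GD15M_CM and 4.38 in CD15M_CM. That of GD15M_CM (29670630 to 29670974) lay further inside the gene. That of CD15M_CM (29678856 to 29679189) was still within the H3K4me3 stretch of the high end. The percentiles of the gene were 50.9, 87.4 and 76.3. The longitudinal layer was high and the pregnant circular layer low for both marks.

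CAVIN1 encodes cavin-1, which coats caveolae with caveolin, on chromosome 12 (20372476 to 20390250). Unlike at CAV1, its H3K4me3 was highest in the cyclic circular layer, with a fold enrichment of 19.1 in GD15M_CM, 19.7 in GD15M_LM and 28.8 in CD15M_CM, at percentiles of 87.8, 79.9 and 94.2. Much of the gene lay under H3K4me3, and within the main region (20374041 to 20389917) peaks covered 15258 bp in CD15M_CM, 15140 bp in GD15M_LM and 11562 bp in GD15M_CM. Over the whole interval they covered 51.0% in GD15M_CM, 73.8% in GD15M_LM and 71.4% in CD15M_CM. H3K27ac was among the strongest of the 10 genes, with a fold enrichment of 7.47, 8.34 and 6.31 and percentiles between 95.5 and 98.2. These strongest peaks lay at a different site in each tissue. From 20371277 to 20373664 the fold enrichment was 7.47 in GD15M_CM, 5.39 in GD15M_LM and 4.63 in CD15M_CM. In the same order it was 6.17, 8.34 and 5.80 from 20374306 to 20379274, and 5.10, 5.07 and 6.31 from 20380705 to 20390210. An lncRNA, LOC110256002, is annotated within CAVIN1, and peaks over it cannot be told apart from those of CAVIN1.

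VCL encodes vinculin, a core protein of dense plaques, on chromosome 14 (76700143 to 76811875). Its low end had the highest H3K4me3 of the 10 genes in both circular tissues, with a fold enrichment of 25.9 in GD15M_CM and 36.3 in CD15M_CM, and it was 24.6 in GD15M_LM. The percentiles were 96.6, 98.4 and 88.5, so the longitudinal layer was lowest here. The end of LOC102160869 lies at the same place, and the peak cannot be assigned to VCL alone. H3K27ac at this end was 5.97 in GD15M_CM, 6.98 in GD15M_LM and 4.14 in CD15M_CM. Its strongest peak in CD15M_CM lay 105 kb inside the gene instead, with a fold enrichment of 5.27.

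FLNA encodes filamin A, which crosslinks actin and binds integrins, on chromosome X (124889934 to 124915000). Its H3K4me3 reached a similar height in all tissues, with a fold enrichment of 13.5 in GD15M_CM, 14.0 in GD15M_LM and 16.2 in CD15M_CM, at percentiles of 75.5, 68.9 and 76.1. The peak called in GD15M_LM was 18995 bp long, and GD15M_CM and CD15M_CM covered 13016 bp and 15429 bp of the same region with more than 1 peak each. In all tissues this mark reached beyond the low end of FLNA toward the neighboring genes LOC110257704 and EMD. H3K27ac over the low end (124889467 to 124892313) had a fold enrichment of 2.99 in GD15M_CM, 5.52 in GD15M_LM and 3.29 in CD15M_CM. A stronger H3K27ac peak of GD15M_LM, of 5.92, lay 2 to 4 kb outside the low end and within 3 kb of an end of EMD. By percentile of the strongest peak, FLNA had 60.0 in GD15M_CM, 87.2 in GD15M_LM and 63.2 in CD15M_CM.

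SYNPO2 encodes synaptopodin-2, also known as myopodin, an actin-binding protein of muscle, on chromosome 8 (104677580 to 104844169). Its H3K4me3 at the high end (104838890 to 104844702) had a fold enrichment of 13.0 in GD15M_CM, 34.0 in GD15M_LM and 26.0 in CD15M_CM, at percentiles of 74.3, 97.5 and 91.5. This was 1 peak of 5813 bp in GD15M_LM and more than 1 shorter peak in each circular tissue, which covered 4952 bp of the same region in GD15M_CM and 5293 bp in CD15M_CM. The region just inside it (104836134 to 104838572) was covered over 2439 bp in GD15M_LM, against 435 bp and 432 bp. In the longitudinal layer this was the strongest H3K4me3 peak of the 10 genes. H3K27ac had 29 peaks over the gene in GD15M_CM, 22 in GD15M_LM and 28 in CD15M_CM. Per 100 kb these were 16.8, 12.7 and 16.2 peaks, beside medians of 9.81, 7.17 and 9.41 over all genes with a peak. No H3K27ac peak lay within 20 kb of the low end in any list. The best H3K27ac percentiles of 97.8, 98.5 and 95.8 lay close together. Joined over the tissues these peaks formed 39 regions, of which 14 were in all 3. At the high end H3K27ac was 7.23, 8.78 and 6.19. The RefSeq model of SEC24D spans the whole of SYNPO2, so its peaks lie within both genes.

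The layers of the pregnant uterus were compared through GD15M_LM and GD15M_CM. For H3K4me3, 5 of the 10 genes ranked at least 10 points higher in GD15M_LM, beside 20.2% of all 17636 genes with a peak in either list. These were SGCA by 35.9 points, SYNPO2 by 23.2, CAV1 by 19.5, SGCD by 14.1 and SGCB by 13.9. None ranked that much higher in GD15M_CM, beside 20.9% of all genes, although 2 did with strict peaks (fold enrichment from 5 and −log10 p from 10 upward) or with peaks under 1 kb apart merged. CAVIN1, VCL and FLNA ranked higher in GD15M_CM by less than the call. The median difference was 10.1 points over the 10 genes and -0.40 over all genes. The length covered by H3K4me3 was at least 1.5 times longer in GD15M_LM at 6 of the 10 genes (DMD, SGCA, SGCD, VCL, FLNA and SYNPO2), beside 11.5% of all genes with a peak in both lists. DAG1 was the 1 gene of 10 with coverage longer by this measure in GD15M_CM, beside 4.97% of all genes. The 10 smooth muscle markers and the epithelial markers also ranked differently between these lists, as given above.

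For H3K27ac, CAV1 by 36.6 points, SGCB by 30.4 and FLNA by 27.2 ranked higher in GD15M_LM, which is 3 of 10 genes, beside 22.5% of all genes. DMD ranked 17.8 points higher in GD15M_CM, the only such gene of the 10, beside 33.8% of all genes. Its fold enrichments differed little, with 4.88 in GD15M_CM and 4.43 in GD15M_LM. With peaks near the gene ends alone, 5 of the 10 ranked higher in GD15M_LM, with no share of all genes given for that setting. The median difference was -0.09 points over the 10 genes and -2.30 over all genes. CAV1 and SGCB thus ranked higher in the longitudinal layer for both marks, whereas the strongest H3K27ac peaks of SGCA and SYNPO2 ranked above 95 in both layers.

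**Figure D4:**
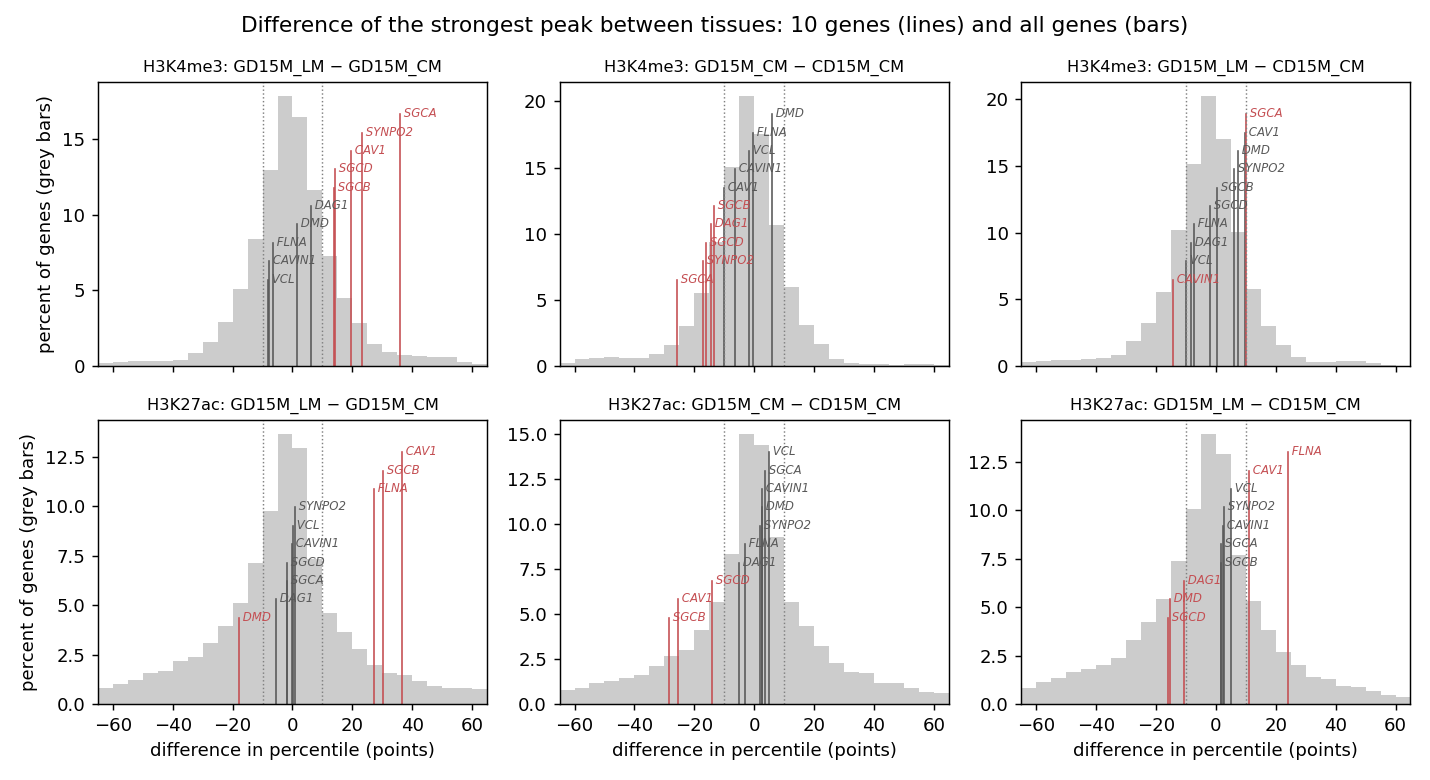
Difference in the percentile of the strongest peak (points) for each pair of pooled lists, with H3K4me3 above and H3K27ac below; grey bars give the percent of all genes with a peak in either list, in steps of 5 points, vertical lines mark the 10 genes (red from 10 points on, line height only separates the names), dotted lines mark the call, and differences beyond 65 points are not drawn. For H3K4me3, 5 genes lie past the call toward GD15M_LM in the first panel and 5 toward CD15M_CM in the second, both of which use GD15M_CM.

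Pregnancy and the cycle were compared through GD15M_CM and CD15M_CM, which shares GD15M_CM with the comparison above. For H3K4me3, 5 of the 10 genes ranked at least 10 points higher in CD15M_CM, beside 23.9% of all genes. These were SGCA by 25.9 points, SYNPO2 by 17.2, SGCD by 16.1, DAG1 by 14.6 and SGCB by 13.4, and CAV1, with a difference of 9.93 points, lay just short of the call. When the order of peaks was set by −log10 p, 2 of the 10 genes passed this call. None ranked that much higher in GD15M_CM, beside 12.4% of all genes. The median difference, GD15M_CM minus CD15M_CM, was -11.7 points over the 10 genes and -2.13 over all genes. The H3K4me3 coverage was at least 1.5 times longer in CD15M_CM at SGCA and SGCD (2 of 10, beside 12.3% of all genes) and in GD15M_CM at none (0 of 10, beside 2.14%). For H3K27ac, SGCB by 28.5 points, CAV1 by 25.5 and SGCD by 14.1 ranked higher in CD15M_CM, which is 3 of 10 genes and close to the 27.4% of all genes. Ranked by −log10 p, 1 did, and with peaks near the gene ends alone, 6 did. None ranked higher in GD15M_CM past the call, beside 25.5% of all genes. When strict peaks alone were ranked, 4 of the 10 did. No share of all genes is given for these other settings. The length covered by H3K27ac was at least 1.5 times longer in CD15M_CM at SGCB and SGCD (2 of 10, beside 17.2%) and in GD15M_CM at DAG1 (1 of 10, beside 11.7%). The smooth muscle markers had a median H3K27ac percentile of 85.9 in GD15M_CM and 94.2 in CD15M_CM.

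GD15M_LM and CD15M_CM differ in both layer and pregnancy, which cannot be told apart in this pair. For H3K4me3, SGCA ranked 10.0 points higher in GD15M_LM (1 of 10 genes, beside 12.8% of all genes) and CAVIN1 14.4 points higher in CD15M_CM (1 of 10, beside 24.7%). With strict peaks these counts were 4 and 3, and with merged peaks 3 and 2. VCL, 9.87 points higher in CD15M_CM, and CAV1, 9.62 points higher in GD15M_LM, lay just short of the call. The covered length was nevertheless at least 1.5 times longer in GD15M_LM at 4 genes, DMD, VCL, FLNA and SYNPO2, beside 4.1% of all genes, and that much longer in CD15M_CM at 0 of the 10, beside 8.21%. For H3K27ac, FLNA by 24.0 points and CAV1, with 87.4 against 76.3, ranked higher in GD15M_LM past the call (2 of 10, beside 20.9%). With strict peaks alone 7 of 10 did, and no share of all genes is given for that setting. SGCD by 15.9, DMD by 15.3 and DAG1 by 10.6 ranked higher in CD15M_CM (3 of 10, beside 34.5%). H3K27ac covered at least 1.5 times more length in CD15M_CM at DAG1 and VCL (2 of 10, beside 34.6%) and in GD15M_LM at 0 of 10, beside 2.58%.

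**Figure D5:**
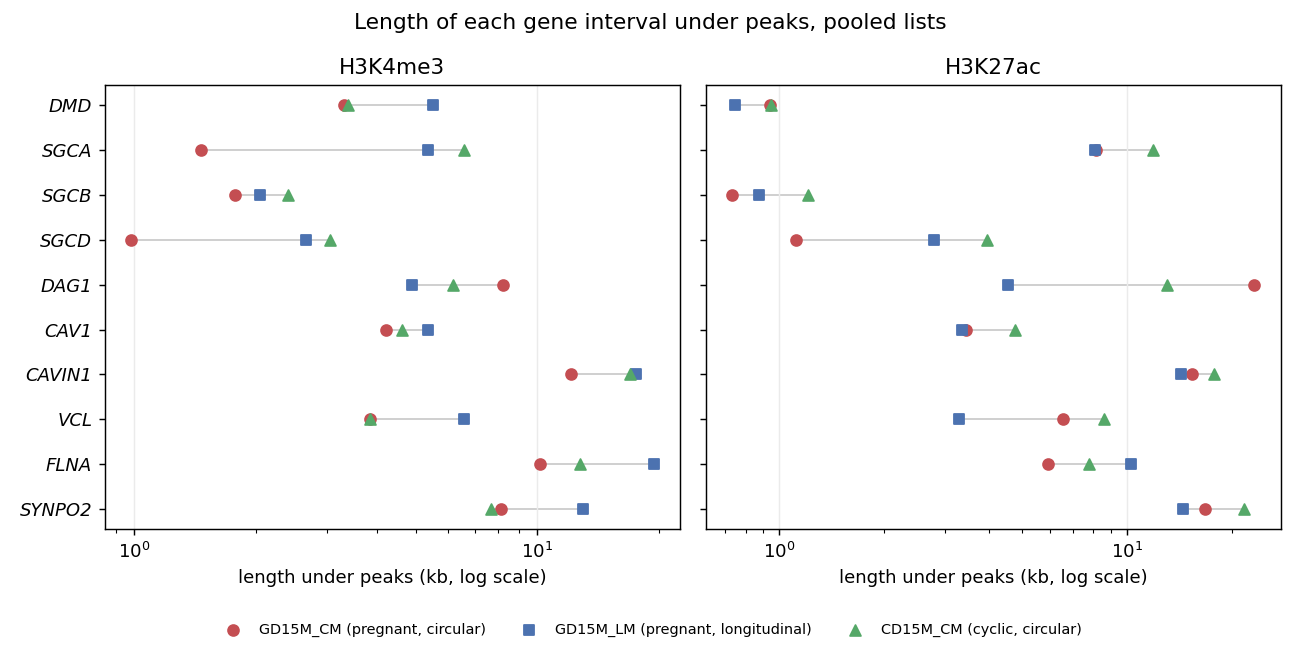
Length under peaks (kb, log scale) in the interval of each of the 10 genes, for H3K4me3 (left) and H3K27ac (right); each point is 1 pooled list of 2 gilts, and the grey line spans the 3 tissues. H3K4me3 covered the most of DMD, VCL, FLNA and SYNPO2 in GD15M_LM, and H3K27ac covered 23.2 kb of DAG1 in GD15M_CM.

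Peaks found in 1 tissue only were counted where no base was covered by a peak of the same mark in the other lists. For H3K4me3, 16 of the 47 peaks at these genes in GD15M_LM were found there alone, 34.0% (95% Wilson interval 22.2 to 48.3), beside 15.4% of all gene peaks of that list. Of these 16 peaks, 6 lay at FLNA, 3 each at DMD, VCL and SYNPO2, and 1 at CAV1. Peaks of 1 gene are not independent, and the interval covers counting error only. Among strict peaks this share was 5.26%. In GD15M_CM the share was 10.5%, beside 12.3%, and in CD15M_CM it was 20.5%, beside 19.5%. The H3K27ac shares were 23.4% in GD15M_CM, 10.4% in GD15M_LM and 25% in CD15M_CM, beside 27.1%, 9.19% and 24.4% of all gene peaks. H3K27ac peaks that overlapped H3K4me3 of the same tissue made up 31.8%, 53.7% and 41% of those at the 10 genes in the same order, beside 37.6%, 49.9% and 38.8%.

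Other genes of the same structures were taken from a list of 44, of which 42 had a peak. For H3K4me3, 14 of these 42 ranked at least 10 points higher in GD15M_LM than in GD15M_CM, beside 20.2% of all genes. Another 4 ranked lower by as much, beside 20.9%. Higher in GD15M_LM were LAMA2, the laminin chain bound by dystroglycan in muscle, with percentiles of 93.7 and 64.3, the integrin ITGA8 with 98.3 and 69.0, and LIMS2 of the integrin-linked kinase complex with 95.2 and 69.4. LPP, a zyxin-related adhesion protein, went the other way with 70.0 in GD15M_LM and 97.9 in GD15M_CM, and so did the integrin activator TLN1 with 78.8 and 90.7. SGCE, which encodes epsilon-sarcoglycan, had an H3K27ac percentile of 62.4 in GD15M_LM and 27.5 in CD15M_CM, and no peak in GD15M_CM.

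Between GD15M_CM and CD15M_CM, 5 of the 42 genes ranked higher for H3K4me3 in GD15M_CM, beside 12.4% of all genes. In CD15M_CM 7 did, beside 23.9%. UTRN, whose product utrophin resembles dystrophin, had a percentile of 92.5 in GD15M_CM and 73.6 in CD15M_CM. CSRP1 with 74.1 and 96.7, the caveola gene CAVIN3 with 69.0 and 90.9, and SGCE with 54.1 and 71.5 were higher in CD15M_CM. Between GD15M_LM and CD15M_CM, 11 ranked higher in GD15M_LM and 4 in CD15M_CM, beside 12.8% and 24.7% of all genes, with the fibronectin receptor chain ITGA5 at 96.6 and 70.9 and the paxillin gene PXN at 75.7 and 88.4.

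For H3K27ac, 8 of the 42 genes ranked higher in GD15M_LM than in GD15M_CM and 6 lower, beside 22.5% and 33.8% of all genes. Between the circular tissues 3 ranked higher in GD15M_CM and 8 in CD15M_CM, beside 25.5% and 27.4%, and 7 ranked higher in GD15M_LM than in CD15M_CM and 7 lower, beside 20.9% and 34.5%. These shares of the 42 lay below those of all genes. CAVIN2 had 11.6 in GD15M_CM, 84.9 in GD15M_LM and 69.1 in CD15M_CM, and LAMA2 had 38.0, 91.1 and 88.4. The pregnant circular layer was lowest at both. CAV2, the partner of caveolin-1, had 75.8 in GD15M_CM and 83.7 in GD15M_LM, and was lowest in CD15M_CM with 28.3.

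The pattern most like that of each gene was sought among the other 53 genes by the mean absolute difference of the 6 percentiles. SYNPO2 was closest to SSPN, which encodes sarcospan, with a mean difference of 2.18 points, CAVIN1 to PACSIN2 with 2.33 and DAG1 to PXN with 3.17. VCL was closest to PACSIN2 with 4.66, SGCB and CAV1 to each other with 5.47, and DMD to PACSIN3 with 5.88. SGCD and SGCA were closest to DTNA with 8.15 and 9.47, and FLNA to CAV1 with 8.95, the 3 largest of these differences. No cutoff for a near match was set, and how close other genes lie to each other was not tested.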

How the data were processed

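Peak lists of the 3 types of myometrium and both marks were used as the authors deposited them. According to the submitters' processing notes and the methods, the authors mapped reads to the Sscrofa11.1 assembly with BWA 0.7.17-r1188, removed duplicates and poorly mapped reads with SAMtools 1.9 and Picard 2.8.3, pooled both gilts of a type and called peaks against IgG with MACS2 2.2.6. In the deposited lists each peak has a position, a length, a fold enrichment (a ratio over IgG, with scaling not stated) and a −log10 p-value. The header of the −log10 p column was unreadable in the deposited lists, and the column was identified from its values. Pooling leaves no spread between gilts and the depth per library was not used here, so no test was made. −log10 q values were not used.

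Peaks were assigned with Python 3.11.15, pandas 2.3.3 and NumPy 2.4.6, with SciPy 1.17.1 for intervals and Matplotlib 3.10.9 for plots, and the code was tested on simulated data. The RefSeq table gave no strand, exons or sequence, so gene ends stood in for gene starts and the planned motif search in promoters was not made. The members and the gene lists were chosen with earlier results of these data known. All 10 genes were described; of the 44 others, the 3 largest percentile differences per mark, comparison and direction past the call were eligible to be named, together with the gene most like each member, and some of these are not reported here. Alternatives were strict peaks (fold enrichment from 5 and −log10 p from 10 upward), a 1 kb window, ranking by −log10 p, equal numbers of top peaks, merging of peaks under 1 kb apart, peaks near gene ends only, a call at 5 points and, for shares, 50% of a peak as the smallest overlap. The bases covered in joined regions were compared after seeing the data.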

Additional observations from a re-analysis of the deposited data

How the results depend on the processing

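No paired analysis was possible because both gilts were pooled before peak calling, and no gilt could be left out. The 24 differences past the call kept their direction and the call with a 1 kb window and with merged peaks. Ranking by −log10 p kept the direction of 24 and the call of 15, equal numbers of top peaks the call of 22, and strict peaks and gene ends the direction and call of 21. At the gene ends SGCD reversed for H3K27ac, to 3.40 points higher in GD15M_LM than in CD15M_CM. Counts of the 10 genes moved as follows, and the cause was not tested. The shares of all genes under these settings are not given, so these counts cannot be set beside them. With strict peaks, H3K4me3 gave 2 genes higher in GD15M_CM than in GD15M_LM, 1 higher in GD15M_CM than in CD15M_CM, and 4 higher in GD15M_LM against 3 higher in CD15M_CM. H3K27ac then gave 5 genes higher in GD15M_LM and 0 in GD15M_CM, 4 higher in GD15M_CM than in CD15M_CM, and 7 higher in GD15M_LM than in CD15M_CM. With merged peaks, H3K4me3 gave 2 genes higher in GD15M_CM than in GD15M_LM, 1 higher in GD15M_CM than in CD15M_CM, and 3 higher in GD15M_LM against 2 in CD15M_CM. A call at 5 points gave 3, 1, and 4 against 4 in the same order, and 2 genes with H3K27ac higher in GD15M_CM than in GD15M_LM. Ranking by −log10 p gave 2 genes with H3K4me3 higher in CD15M_CM than in GD15M_CM in place of 5, and 0 higher in CD15M_CM than in GD15M_LM. For H3K27ac it gave 2 genes higher in GD15M_CM than in GD15M_LM, 1 higher in CD15M_CM than in GD15M_CM, and 1 higher in GD15M_LM than in CD15M_CM. Equal numbers of top peaks gave 2 genes with H3K4me3 higher in GD15M_LM than in CD15M_CM, and 1 with H3K27ac higher in CD15M_CM. Gene ends gave, for H3K27ac, 5 genes higher in GD15M_LM than in GD15M_CM, 1 higher in GD15M_CM and 6 higher in CD15M_CM between the circular tissues, and 1 higher in CD15M_CM than in GD15M_LM. Of strict peaks, 5.26% of the H3K4me3 peaks of GD15M_LM and 0% in the other 5 lists were found in 1 tissue only, so the peaks found in 1 tissue were mostly weak ones. An overlap of at least 50% moved none of the 9 shares beyond its interval.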
